A study of Mus musculus with 24 samples.

Results

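Loss of the short arm of chromosome 1, band 1p36, is a recurrent lesion of human neuroblastoma, and most of that band corresponds to distal Chr 4 of the mouse. Copy number was described here for 6 genes of this stretch that are discussed as neuroblastoma suppressors, out of 20621 autosomal protein-coding genes: Arid1a, Runx3, Casz1, Kif1b, Camta1 and Chd5. They are given by name and position. In a diploid cell the loss of 1 of 2 copies gives a log2 ratio of -1 to a normal tissue, and a mixture with cells that keep both copies gives a value nearer to 0. A suppressor gene can lose 1 copy together with many neighbours when a chromosome arm breaks, so the edges of a loss show which genes it holds in common with other tumours.

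Shallow whole genome sequencing (sWGS), which reads genomic DNA at low depth, gave segment values for 5 adrenal glands and 16 tumours of transgenic mice. The 5 adrenal glands (AGM) are labelled MYCN fl/wt, CRE +. The 8 TI tumours are CRE + and carry IGF2BP1, labelled +/- in replicate 1 and +/+ in the other 7, and the 8 TIM tumours are labelled IMP1/MYCN, CRE +, where IMP1 is another name for IGF2BP1. All values are log2 ratios to 3 adrenal glands of CRE - wildtype animals, which have no values of their own here. The study integrated its transgenes at Rosa26 and activated them with iCRE driven by Dbh, a gene of sympathoadrenal cells, so that other cells of a sample are not targeted. TI replicate 6 and, among TIM, replicates 1 and 5 are labelled as adrenal, and the labels give no ages. The study reports a shorter median survival for IGF2BP1/MYCN than for homozygous IGF2BP1 mice, and culled its MYCN mice later still. Age therefore differs with group and cannot be told apart from genotype. The labels do not say that every sample came from a separate animal, so p-values measure the spread between these samples.

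Sample titles carry the prefix SH in 7 of 8 TI tumours and in all 3 reference glands, and AGH in TI replicate 8, all 8 TIM tumours and all 5 AGM. The labels do not explain the prefixes. In every comparison that includes TI, the prefix and the genotype cannot be told apart, whereas TIM and AGM share a prefix. Both comparisons with AGM set tumours, most of them not labelled as adrenal, against adrenal glands. In these, tumour state and tissue cannot be told apart from genotype either. Chr 4 was divided into 3 to 5 segments in AGM, 3 to 12 in TI and 3 to 8 in TIM. No 2 samples held identical values (0 of 210 pairs).

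The 6 genes lie within 19.07 Mb of Chr 4 in GRCm39 (mm39), in a proximal pair and a distal group. Arid1a (ENSMUSG00000007880, chr4:133406304-133484080, minus strand) encodes a DNA-binding subunit of the BAF chromatin remodelling complex. Runx3 (ENSMUSG00000070691, chr4:134847952-134905301, plus strand) encodes a Runt-domain transcription factor of sensory neurons and lymphocytes. After a gap of 13.98 Mb follows Casz1 (ENSMUSG00000028977, chr4:148888788-149039346, plus strand), a zinc finger transcription factor of neural and cardiovascular differentiation. Kif1b (ENSMUSG00000063077, chr4:149260618-149410343, minus strand) encodes a kinesin motor, one isoform of which promotes neuronal apoptosis. Camta1 (ENSMUSG00000014592, chr4:151143978-151946333, minus strand) encodes a calmodulin-binding transcription activator and is the longest of the 6 genes at 802.4 kb. Chd5 (ENSMUSG00000005045, chr4:152423077-152474651, plus strand) encodes a neuronal chromatin remodeller of the NuRD type and ends 4.39 Mb before the end of the chromosome.

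The tumour-suppressive microRNA gene Mir34a and the Mir200b, Mir200a and Mir429 cluster, known for restraining epithelial to mesenchymal transition, lie in the same distal stretch. Mir34a (chr4:150152911-150153012, plus strand) lies between Kif1b and Camta1. The cluster (chr4:156138362-156140207, minus strand) lies beyond Chd5. Their mature sequences are shown because these genes shared the losses of the distal group described below. They are RefSeq sequences (GRCm38.p6), with the seed, bases 2 to 8, in capitals. The seed is the part that pairs with target mRNAs.
mmu-miR-34a-5p: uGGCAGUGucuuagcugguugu
mmu-miR-200b-3p: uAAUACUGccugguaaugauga
mmu-miR-429-3p: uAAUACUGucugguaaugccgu
mmu-miR-200a-3p: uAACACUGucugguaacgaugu
miR-200b and miR-429 share a seed, and the seed of miR-200a differs from it.

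Of the 6 genes, 4 had lost about 1 copy in TI replicates 4 and 6, and the other 2 in TI replicate 6 only. A loss was a segment median of -0.4 or less over any part of a gene, and a gain 0.3 or more. In the 126 combinations of gene and sample each gene lay within a single segment, and the 6 genes took only 2 distinct patterns of values over the 21 samples. Arid1a and Runx3 shared their values in every sample and with a set of 219 protein-coding genes, themselves included. Casz1, Kif1b, Camta1 and Chd5 shared theirs within a set of 157 genes. The 6 genes are therefore not 6 measurements, and the data do not separate a gene from its neighbours within either set.

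**Figure D1:**
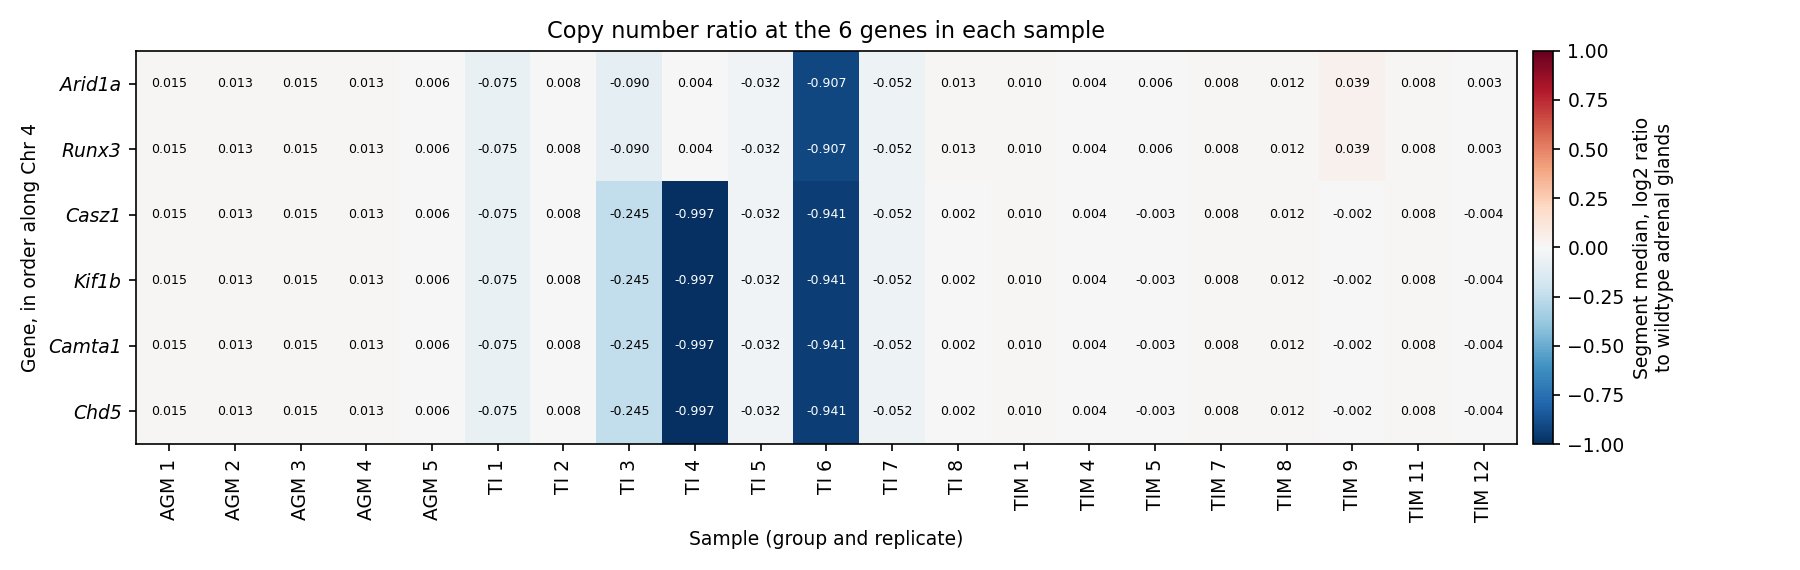
Segment median (log2 ratio to wildtype adrenal glands, printed in each cell and coloured from -1 to 1) at the 6 genes in order along Chr 4, in 5 AGM, 8 TI and 8 TIM samples. The 2 dark columns are TI replicate 6, low at all 6 genes, and TI replicate 4, low only at the distal group. TI replicate 3 is paler and steps down between Runx3 and Casz1.

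In the AGM adrenal glands the log2 ratio at all 6 genes was 0.015, 0.013, 0.015, 0.013 and 0.0056 in replicates 1 to 5. These values lie just above 0, and replicate 5 is the lowest. None of the 5 AGM had a loss or gain of any of the 6 genes.

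At Arid1a and Runx3 the TI tumours had log2 ratios of -0.075, 0.0076, -0.090, 0.0039, -0.032, -0.91, -0.052 and 0.013 in replicates 1 to 8. Only replicate 6 passed the loss threshold, and replicates 2, 4 and 8 lay among the values of the other groups. In TIM replicates 1, 4, 5, 7, 8, 9, 11 and 12 the values were 0.0096, 0.0041, 0.0057, 0.0079, 0.012, 0.039, 0.0084 and 0.0031. TIM replicate 9 stood highest, and no TIM value was below 0.

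At Casz1, Kif1b, Camta1 and Chd5 the TI values were -0.075, 0.0076, -0.25, -0.997, -0.032, -0.94, -0.052 and 0.0021 in replicates 1 to 8. Replicates 4 and 6 stood far below the rest and corresponded to 1.00 and 1.04 copies, and replicate 3, at 1.69 copies, did not pass the threshold. In TIM the values were 0.0096, 0.0041, -0.0031, 0.0079, 0.012, -0.0020, 0.0084 and -0.0044, in the same order of replicates. All 8 TIM values lay between -0.0044 and 0.012, and replicates 5, 9 and 12 were slightly below 0.

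Losses of these genes were thus called in 2 of 8 TI tumours (25%, 95% Clopper-Pearson interval 3.19 to 65.1), 1 over all 6 genes and 1 over 4 of them. No member was called lost in the 8 TIM tumours (0%, upper limit 36.9%) or in the 5 AGM (0%, upper limit 52.2%). These intervals cover the number of samples only, since the depth behind a segment was not analysed here. None of the 21 samples had a gain of any of the 6 genes. Of all protein-coding genes, 9.3% were lost in at least 1 TI tumour, as were all 6 members, and 1.66% in at least 2, as were 4 of 6. In at least 1 TIM tumour 0.369% of genes were lost, and in at least 1 AGM 0.252%. Of the 342 genes lost in at least 2 TI tumours, 297 lie on Chr 4, 283 of them in the distal stretch that replicates 4 and 6 had both lost. The other 14 lie proximally at chr4:41903610-42665763, where losses were also called in 2 of 5 AGM and 2 of 8 TIM. Other losses recurred in more TI tumours, as 21 genes, none of them a member, were lost in at least 3.

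The number of losses was too small for a test to separate TI from TIM. For Casz1, Kif1b, Camta1 and Chd5, 2 of 8 against 0 of 8 gave p = 0.467 in a two-sided Fisher's exact test, with an adjusted p of 1 over all genes (Benjamini-Hochberg). For Arid1a and Runx3, 1 of 8 against 0 of 8 gave p = 1 in the same exact test. No other split of so few losses gives a smaller p, so the test could not decide whether TI and TIM differ here. No gene of the genome passed this test after adjustment (0%), and 6 had an unadjusted p under 0.05.

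The full loss in TI replicate 6 ran over most of the distal part of Chr 4. From its first to its last called position it spanned chr4:89180001-156720000, 67.54 Mb or 43.1% of the chromosome, with 842 protein-coding genes, and 66.4 Mb of this passed the threshold. It was formed of 3 segments, at -0.87, -0.91 and -0.94 from proximal to distal. Arid1a and Runx3 lay in the middle segment of 36.1 Mb and the other 4 genes in the last one of 10.74 Mb. All 6 genes were far from the proximal edge, Arid1a by 44.23 Mb and Chd5 by 63.24 Mb. In this tumour 4.12% of all genes were lost.

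The proximal edge of this loss fell beside Cdkn2a, which encodes the cell cycle inhibitor p16INK4a and p19ARF. Cdkn2a starts 12.7 kb inside the edge, less than 1 step of the 20 kb grid on which all segments start. Mtap, a methionine salvage enzyme often lost together with CDKN2A in human cancers, ends 80.7 kb outside it, where the log2 ratio was 0.13. The loss was interrupted at chr4:108740001-109540000 by a segment at -0.27, which holds parts of Rab3b and Faf1 and the whole of Cdkn2c, the gene of the inhibitor p18INK4c. Cdkn2c therefore had no loss call in a tumour that had lost sequence on both sides of it.

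The partial loss in TI replicate 4 was shorter and took in the distal group only. It spanned chr4:138160001-156720000, 18.56 Mb or 11.8% of Chr 4 with 283 protein-coding genes. The edge lay between Fam43b, which ends 36.2 kb outside, and Mul1, a mitochondrial ubiquitin ligase that starts 2.0 kb inside. Runx3 was 3.25 Mb and Arid1a 4.68 Mb outside, and Casz1 was the nearest member inside, at 10.73 Mb. Segments start on a 20 kb grid, so the side of the edge on which Mul1 lies is not resolved, and neither is it for the part of Cdkn2a nearest to the edge in replicate 6. The level was 0.0039 before the edge and -0.996 after it, a step of about 1 copy. In this tumour 1.43% of all genes were lost.

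**Figure D2:**
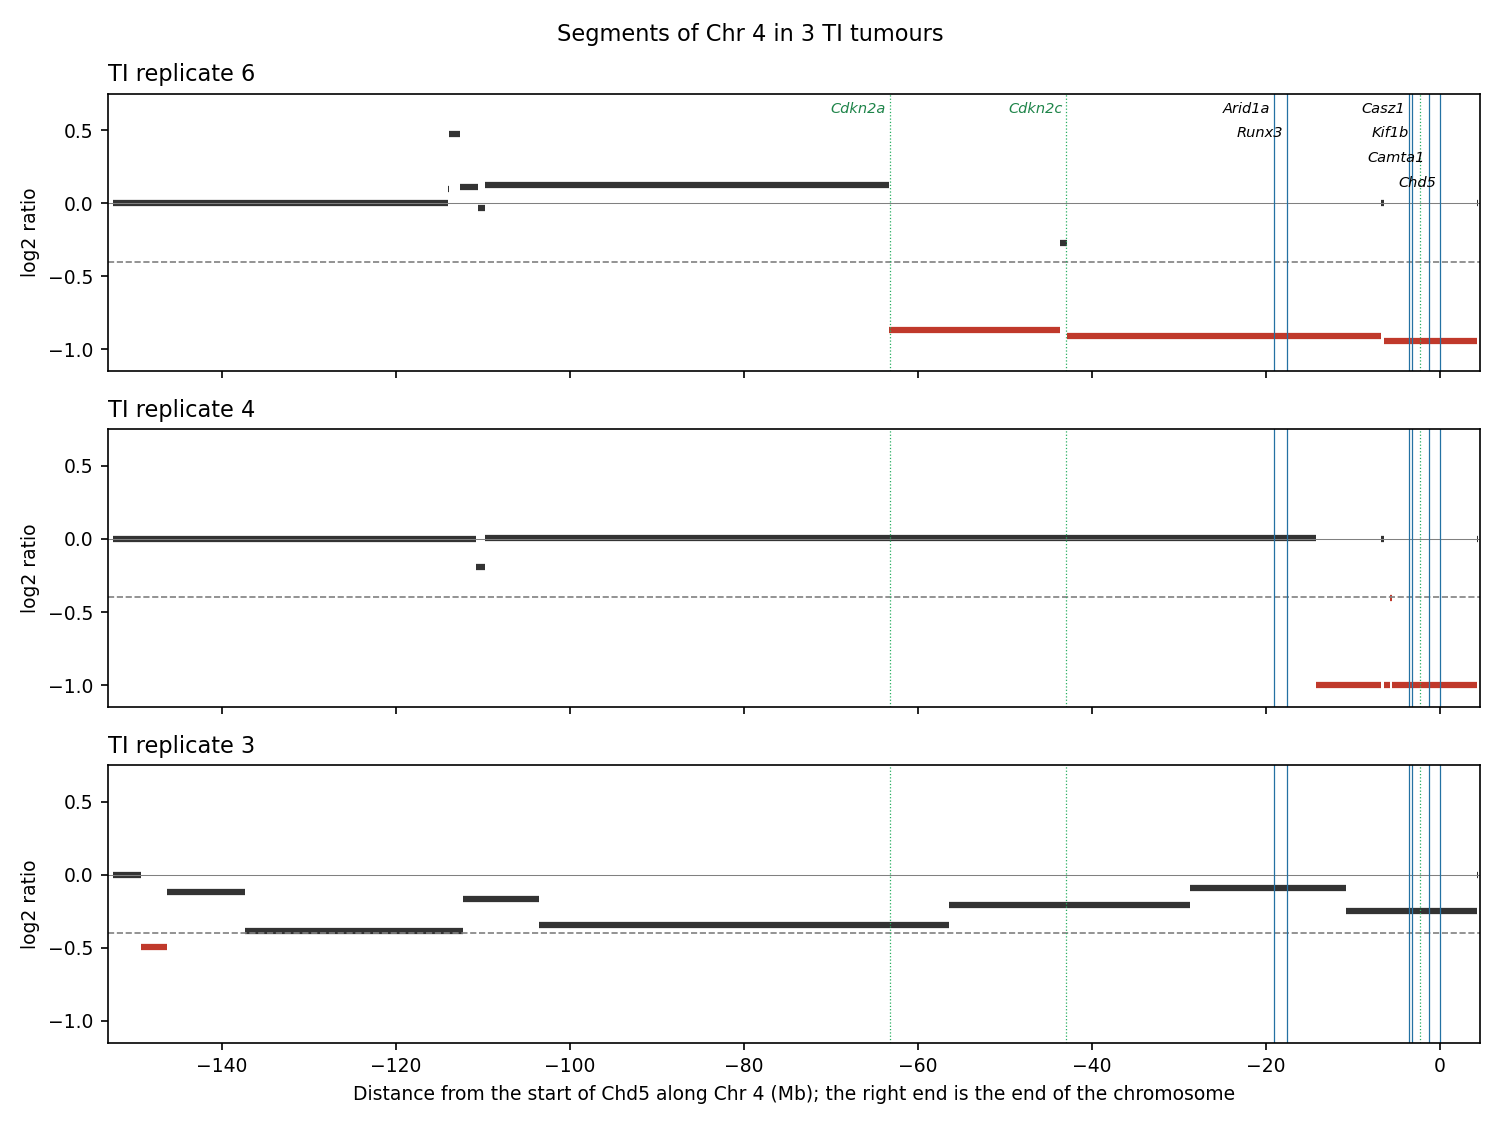
Segment medians (log2 ratio) along the whole of Chr 4 in TI replicates 6, 4 and 3, against the distance from the start of Chd5 in Mb. Red segments are at or below the loss threshold of -0.4 (dashed), blue lines mark the 6 genes, and dotted green lines mark Cdkn2a, Cdkn2c and, between Kif1b and Camta1, Mir34a. The loss starts beside Cdkn2a in replicate 6, between Runx3 and Casz1 in replicate 4, and most of replicate 3 lies between the threshold and 0.

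The whole stretch lost in replicate 4 was also lost in replicate 6, whose proximal edge lay 48.98 Mb further from the end of the chromosome. Both losses were broken at chr4:145640001-145980000 and stopped at position 156720000, with values of exactly 0 in these windows. Both windows consist only of unknown bases (100% N) in GRCm39, so no reads can be placed there, and the data show neither a true gap in the losses nor their distal edges. A 0.22 Mb segment at -0.40 within the loss of replicate 4 lies in sequence with 60.8% unknown bases. The last gene inside the called loss was Vmn2r129, a vomeronasal receptor gene 28.2 kb from the stop, and no protein-coding gene followed.

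TI replicate 3 differed from both and lay below 0 over nearly all of Chr 4 without a loss of any member. The segment with Arid1a and Runx3 was at -0.090 and the one with the distal group, from position 141640001, at -0.25. More proximal segments were at -0.21, -0.34, -0.16, -0.38, -0.12 and -0.50, of which only the last passed the threshold. Arid1a and Runx3 thus lay in the segment nearest to 0, apart from the chromosome ends, and the distal group in the middle of this range. In bulk tissue, a loss in a fraction of cells and a smaller change in all cells cannot be told apart.

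TI replicates 1, 5 and 7 were below every AGM and TIM value at all 6 genes, by small amounts. Their single segments at these genes, 153.12, 114.14 and 114.00 Mb long, had medians of -0.075, -0.032 and -0.052. The median over all autosomes was 0.0067, -0.028 and 0.024 in these tumours, so the value of replicate 5 at these genes was close to its genome-wide level. The means of the same segments were -0.25, -0.21 and -0.23. The mean of a segment was at or below -0.2 in 6 of 8 TI tumours at Chd5 and in 5 of 8 at Arid1a, against 0 of 8 TIM tumours and 0 of 5 AGM at either gene. Which windows of these segments lowered the mean was not analysed here.

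**Figure D3:**
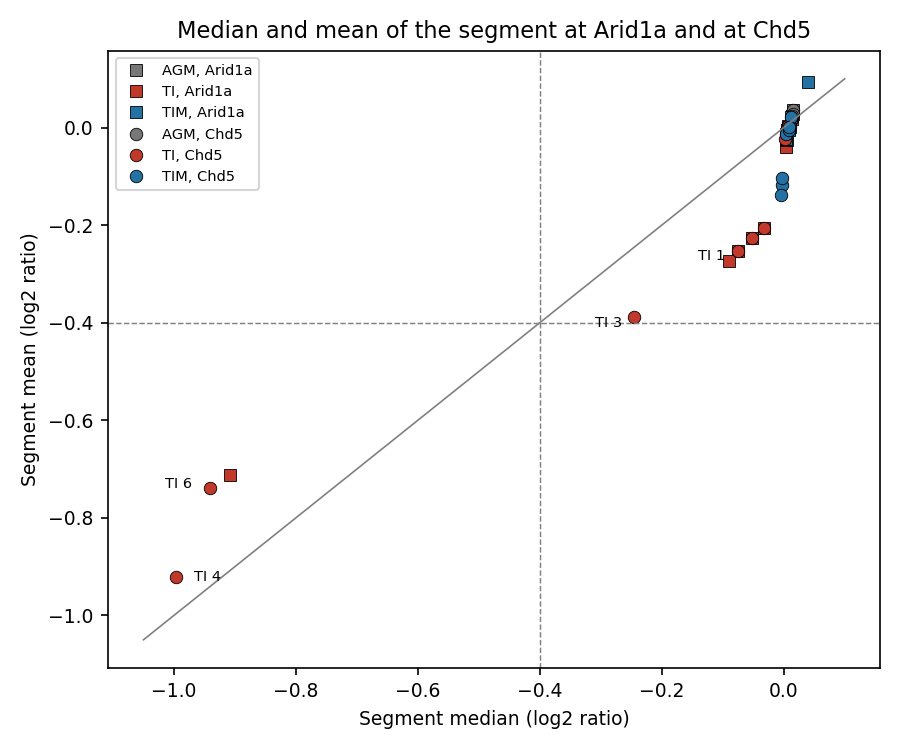
Median against mean of the segment (both log2 ratios) at Arid1a (squares) and Chd5 (circles) in each sample, coloured by group, with the line of equality and the loss threshold of -0.4 (dashed). TI replicate 6 passes the threshold by both measures at both genes and TI replicate 4 at Chd5 only, and TI replicate 3 at Chd5 comes close by its mean of -0.39. TI replicates 1, 3, 5 and 7 have means well below their medians at both genes, and TIM replicates 5, 9 and 12 at Chd5.

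The 4 distal genes were lower in TI than in TIM by the rank test, and the proximal pair did not pass it. The median at Chd5 was -0.064 in TI and 0.0060 in TIM, a difference of -0.070, and TI was lower in 57 of 64 pairs of tumours (Mann-Whitney rank sum, exact two-sided permutation test, p = 0.00699, adjusted p = 0.0371 over 20621 genes). Casz1, Kif1b and Camta1 have the same values. At Arid1a and Runx3 the medians were -0.042 and 0.0082 and TI was lower in 53 of 64 pairs (exact permutation test, p = 0.0281, adjusted p = 0.0824). Of all genes, 10.8% were lower in TI at this threshold. The means were -0.29 ± 0.43 (SD, n = 8) in TI and 0.0041 ± 0.0065 (SD, n = 8) in TIM at Chd5, and -0.14 ± 0.31 (SD, n = 8) and 0.011 ± 0.012 (SD, n = 8) at Arid1a.

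The call at the distal group was close to the threshold. In the same exact permutation test it was lost with the segment mean in place of the median (adjusted p = 0.0899), after centring each sample on its autosomes (adjusted p = 0.137), and without TI replicate 1, 3, 4, 5 or 7 or TIM replicate 1, 7, 8 or 11 (0 of 6 genes each). Without TI replicate 8 all 6 genes passed, against TIM as against AGM. That replicate, the only TI tumour with the AGH prefix, had 0.0021 at Chd5, inside the range of the TIM tumours.

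Against the AGM adrenal glands the same 4 genes were lower in TI. At Chd5 the medians were -0.064 and 0.013, and TI was lower in 39 of 40 pairs (exact permutation test, p = 0.00311, adjusted p = 0.0186). The exception was TI replicate 2 against AGM replicate 5. At Arid1a and Runx3 TI was lower in 36 of 40 pairs (exact permutation test, p = 0.0186, adjusted p = 0.0616). Of all genes, 11.3% were lower in TI than in AGM. By exact permutation the call at the distal group was lost after centring (adjusted p = 0.0558) and with a difference of means (adjusted p = 0.342). These AGM also enter the next comparison, and the TI tumours are those of the comparison with TIM.

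TIM and AGM, which share the AGH prefix, did not differ by the adjusted test at any of the 6 genes. At Chd5 the medians were 0.0060 in TIM and 0.013 in AGM, and TIM was lower in 36 of 40 pairs (exact permutation test, p = 0.0186, adjusted p = 0.395). At Arid1a TIM was lower in 30 of 40 pairs (exact permutation test, p = 0.171, adjusted p = 0.470). No gene of the genome was lower in TIM at this threshold (0%), whereas 1669 of 20621 genes had an unadjusted p under 0.05 in either direction.

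**Figure D4:**
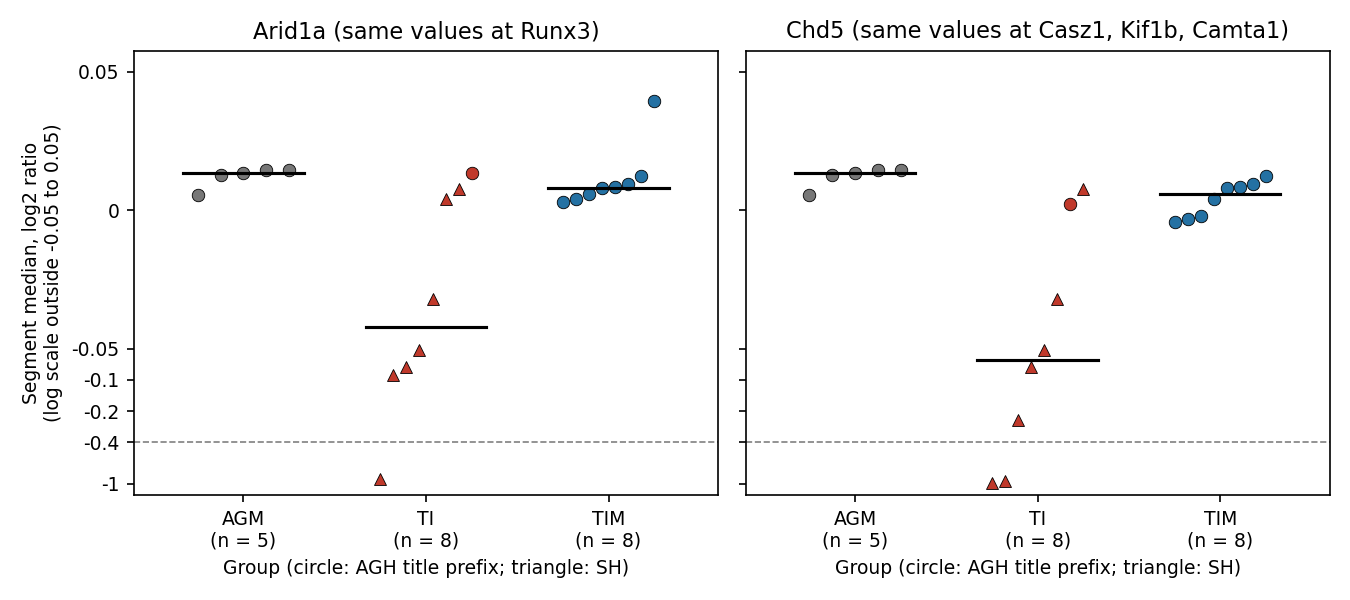
Segment median (log2 ratio, on a scale that is linear from -0.05 to 0.05 and logarithmic outside) at Arid1a and at Chd5 in AGM (n = 5), TI (n = 8) and TIM (n = 8), with group medians as bars and the loss threshold of -0.4 dashed. Triangles have the SH title prefix and circles the AGH prefix. At Chd5, 6 of 8 TI tumours lie below all TIM tumours, and the other 2 lie among them.

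In 6 of 21 samples a segment boundary fell between Runx3 and Casz1, other than at the unknown bases, and in all 6 Casz1 was lower than Runx3. The first such boundary of each sample lay between positions 136040001 and 141840001. The difference, Casz1 minus Runx3, was -1.001 in TI replicate 4 and -0.16 in TI replicate 3. It was -0.011 in TI replicate 8, -0.0089 in TIM replicate 5, -0.041 in TIM replicate 9 and -0.0075 in TIM replicate 12, all small beside the threshold. The sequence between these positions had a GC content of 49.9%, that distal to them 46.6% and that of Chr 4 proximal to them 41.5%, and the part of base composition in these steps was not tested.

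Other genes of the 1p36-syntenic stretch followed the 2 losses by position. All 44 genes of a list of such genes were lost in TI replicate 6 and 36 of 44 in TI replicate 4, against 4.12% and 1.43% of all genes. None was lost in TIM or AGM, where few genes were lost at all (0.369% and 0.252%). The 36 include Trp73, a p53 relative, Dffa and Dffb, subunits of the apoptotic DNA fragmentation factor, Mtor, and the 4 microRNA genes. The cluster of Mir200b, Mir200a and Mir429 lies 0.58 Mb and Mir34a 6.57 Mb before the stop of the called loss, and all 4 had the values of Chd5 in every group median, -0.064 in TI and 0.0060 in TIM. The 8 that were kept in replicate 4 are Ece1, Rap1gap, Cdc42, Ephb2, Id3, E2f2, Extl1 and Sfn, at 0.0039 in that tumour.

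Spen, Epha2 and Sdhb lie between the edge of replicate 4 and the step of replicate 3, at -0.996 in replicate 4 and -0.090 in replicate 3. Of the 40 protein-coding genes of this list, 29 were lower in TI than in TIM and 29 than in AGM at an adjusted p under 0.05, against 10.8% and 11.3% of all genes, 0 were higher, and 0 differed between TIM and AGM. Most of these genes repeat the segments of the members. In replicate 4, Prdm2, Spen, Epha2 and Sdhb lie in a segment without members, at -0.996, within the same loss. The list is therefore not separate evidence. The median over the list of the TI group medians was -0.064, against 0.0083 over all protein-coding genes.

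Of 11 landmark genes on the rest of Chr 4, 8 were lost in TI replicate 6 and 0 in replicate 4, against 4.12% and 1.43% of all genes. The lost ones are Cdkn2a, Cdkn2b, Jun, Tal1, Mutyh, Mycl, Rbbp4 and Hdac1, and those kept are Cdkn2c, Pax5 and Mob3b. Mob3b, proximal to all called losses of the members, was lower in TI than in TIM (exact permutation test, adjusted p = 0.0271) with a TI median of -0.030. In all, 7 of the 11 were lower in TI than in TIM and 7 than in AGM, against 10.8% and 11.3% of all genes. Cdkn2a, Cdkn2b and Jun share their values, as do Tal1 and Mutyh, so these counts repeat shared segments. The median of their TI medians was -0.042.

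Paralogs of the members lie on other chromosomes and showed gains as well as losses. Of 8, 6 were gained in at least 1 TI tumour, against 24% of all genes, and 4 in at least 1 TIM tumour, against 13.7%. Of these, Chd3, Camta2 and Kif1c lie on Chr 11 and share their gains in TI replicates 5 and 8 and TIM replicate 9. Arid1b and Runx2 lie on Chr 17 and share theirs in TI replicates 1 and 7, so the 6 are not separate events. In addition 2 were lost in a TI tumour, against 9.3% of all genes, Chd4 in replicate 8 and Runx1 in replicate 1. Chd4, a NuRD remodeller like Chd5, was gained in TI replicates 3 and 4 and in TIM replicates 1, 7, 11 and 12. In TI replicate 4 Chd5 was therefore at -0.997 and Chd4 at 0.44. By the exact permutation test Runx2 was higher (TI median 0.17, TIM 0.0093, adjusted p = 0.0371) and Runx1 lower (TI -0.027, TIM 0.013, adjusted p = 0.0484) in TI than in TIM, and neither passed against AGM (adjusted p = 0.0616 for both). With 1 of 8 in each direction against 10.7% and 10.8% of all genes, these calls are not a result about the paralogs. The median of the TI medians was 0.020 over the paralogs.

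Among 21 genes of partner proteins of the members, 2 lie on Chr 4, Hdac1 and Rbbp4, NuRD subunits lost in TI replicate 6 together with Chd5. Against TIM, 2 of 21 were lower in TI by the exact permutation test, the BAF subunits Smarca4 and Smarcc1 (adjusted p = 0.033 for both), which are on Chr 9 and had TI medians of -0.12 each. The 3 higher ones in the same exact test were Smarce1, a BAF subunit (TI median 0.60, adjusted p = 0.0271), Mta1, a NuRD subunit (0.59, adjusted p = 0.005), and Egln3, a prolyl hydroxylase upstream of KIF1B in neuronal apoptosis (0.58, adjusted p = 0.005). Against AGM the same 3 were higher in the exact test, and Dpf2 and Mta2 were lower (adjusted p = 0.00991 for all 5). Of all genes, 10.8% were lower and 10.7% higher in TI than in TIM, near the counts of the partners, which are therefore not a result about them. Against AGM the shares of all genes were 11.3% lower and 6.35% higher, beside 2 and 3 of 21 partners. Egln3 and Mta1, both on Chr 12, were gained in the same tumours, TI replicates 2, 3, 5, 7 and 8. The median of the TI medians over the partners was 0.010.

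On each other autosome, the gene with values most like the median of the 6 members over the 21 samples was found, by the mean absolute difference of log2 ratios. This median equals the value of the distal group in every sample, since that group holds most of the 6 genes, so Arid1a and Runx3 do not enter. The nearest was Ctsm on Chr 13, a placental cathepsin gene, with a mean difference of 0.0632 that 3 genes of that chromosome share. Ctsm followed TI replicate 4 (-0.97) but not replicate 6 (0.0057). Ighmbp2 on Chr 19, tied with all 723 protein-coding genes of that chromosome, had 0.102, and Or8g4 on Chr 9 had 0.104. A value of 0 in every sample would give 0.117. The samples share libraries across these genes, and the likeness is a description.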

How the data were processed

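Tumours, adrenal glands and reference glands were sequenced as sWGS libraries. Per the labels and the study's methods, the authors trimmed reads with cutadapt 2.8, aligned them to mm39 with HISAT2 2.1.0, processed them with SAMtools 1.10 and called segments with cn.MOPS, which models read counts per window across samples. The deposited values are a median and a mean log2 ratio per segment and sample, with a copy number (1485 segments). The window length and the settings of segmentation are not given in the sources used here, and depth per library was not analysed here. The number of samples limits precision.

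A gene's value is the length-weighted mean of the medians of the overlapping segments. Gene positions came from GENCODE M39 (GRCm39), in which Chr 4 has the same length, 156860686, as in the segments. Thresholds were those of the study, -0.4 and 0.3. All 20621 autosomal protein-coding genes were tested (two-sided exact permutation of the Mann-Whitney rank sum, or Fisher's exact test on losses) with Benjamini-Hochberg adjustment. Python 3.11.15 was used with scipy 1.17.1, numpy 2.4.6, pandas 2.3.3 and, for plots, matplotlib 3.10.9, and the test was tested on simulated data.

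The members, the gene lists and the tests were chosen with earlier results of these data known. Lists are given by counts, with up to 6 genes named and those whose calls differ from the members. Edge genes are the nearest protein-coding genes. Genes named beyond this rule were chosen after their values were seen. They include Chd4, Smarce1, Mta1, Egln3 and other list members that passed a test. Further ones are landmark genes, paralogs that share a gain, and genes lost or kept in replicate 4. Alternatives were other thresholds, the segment mean, whole gene bodies, the copy number, centring, the segment at the gene start, a difference of means, subsets of tumours, a replicate block and leaving out each replicate.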

Additional observations from a re-analysis of the deposited data

Results flagged for a closer look

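Each gene was examined in each group for a sample that stood apart from the rest (gap to the nearest sample over the range, against the 95% critical value of Dixon's test). Of 18 sets of values, 10 were picked out, but these hold only 5 distinct sets, of which 3 were picked out. Chance picks out about 1 group in 20.

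TI replicate 6 stood apart at Arid1a and Runx3, at -0.91 with the next tumour at -0.090. At Casz1, Kif1b, Camta1 and Chd5 no TI tumour stood apart, since replicates 4 and 6 were both low. TIM replicate 9 was the highest at Arid1a and Runx3, at 0.039 with the next tumour at 0.012. AGM replicate 5 was the lowest of the adrenal glands at all 6 genes, at 0.0056 with the next at 0.013, a difference far smaller than the threshold of -0.4.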

How the results depend on the processing

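The number of samples with a member lost stayed at 0 in TIM and 0 in AGM under all 7 alternatives, and at 2 in TI except that thresholds of -0.2 and -0.1 added TI replicate 3, for 3. Fisher's exact test called 0 of 6 genes under each, but with so few losses its p was at least 0.2 before adjustment, so this says nothing of stability.

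The count of genes lower in TI than in TIM was 4 of 6. It was 0 with the segment mean, after centring, with IGF2BP1 +/+ tumours only, with tumours outside the adrenal gland only, with the AGH prefix only and with the replicate block, 6 with a difference of means, and ranged from 0 to 6 without single replicates. With the AGH prefix only, which leaves 1 TI tumour, Arid1a and Runx3 turned to higher in TI (exact permutation test, adjusted p = 1), but the smallest p this split allows is 0.111, so no gene could pass. Against AGM the count of 4 rose to 6 with the segment mean (Arid1a and Runx3, exact permutation test, adjusted p = 0.0325), fell to 0 with a difference of means, after centring and with the replicate block, and ranged from 4 to 6 without single replicates. Between TIM and AGM it was 0 throughout.

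Correlations of same-numbered samples' deviations from their group means ranged from -0.432 to 0.463 for TI and TIM, with no common sign. So few pairs cannot settle whether shared replicate numbers pair the samples. The block uses 5 pairs for TI and TIM, whose smallest possible p is 0.0625, so a lost call there says nothing of stability. Few samples per group and the low depth, which was not analysed per library here, limit all comparisons.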
